A study of Homo sapiens with 12 samples.

Results

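The enzymes and transporters that carry glucose to pyruvate, lactate and the pentose phosphates were examined as 33 genes in the cell line HK-2, which was established from the proximal tubule of a human kidney. The members were listed by symbol and matched to Ensembl identifiers, and all 33 were found among the 40649 genes counted in each of 12 libraries of polyadenylated RNA. All 33 also passed the filter on low counts that left 19268 genes for testing. The libraries fell into 3 groups of 4. The group shYAP1_H2O2 had the genotype Yap1 knockdown and was given hydrogen peroxide, an oxidant, at 150 µM for 48 h. The group shNC_H2O2 had the control genotype ShNC and the same treatment. The group shNC had the control genotype and no hydrogen peroxide. No cells with the knockdown and without the oxidant were analysed here, so the knockdown was examined only in treated cells. The labels do not say how YAP1 was targeted, whether each genotype was a clone or a pool, or whether replicates were cultured separately. The p-values thus reflect spread between libraries, and that spread may be technical.

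Glycolysis splits glucose into pyruvate. Its first phase spends ATP to trap and phosphorylate the sugar, and its second phase, which begins at glyceraldehyde phosphate, returns ATP and NADH. Pyruvate is then either reduced to lactate and exported or carried into mitochondria and oxidised by pyruvate dehydrogenase, and the pentose phosphate pathway branches off at glucose phosphate to supply NADPH, which feeds glutathione reduction, and ribose phosphate. The healthy proximal tubule is known for oxidising fatty acids and for making rather than using glucose, whereas proximal tubule lines in culture use glycolysis. The gluconeogenic genes FBP1 and PCK1 averaged at most 0.125 CPM in every group. Other genes of this route had more. PCK2 averaged 41.8 CPM in shYAP1_H2O2, 43.3 CPM in shNC_H2O2 and 37.2 CPM in shNC. In the same order G6PC3 averaged 38.3, 26.7 and 46.9 CPM, and PC 16.1, 8.07 and 12.8 CPM. CPM are gene counts relative to the library total, scaled here with TMM factors.

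Total counts lay between 30789997 and 46582873 per library. A floor of detection of 3 counts came to 0.0644 to 0.0974 CPM, a limit that covers counting error only. Of 8 proximal tubule markers 3 averaged at least 1 CPM, and LRP2, AQP1 and ANPEP were near 0, with 39.8 to 53.6 CPM summed over the list in shYAP1_H2O2, 32.2 to 38.6 CPM in shNC_H2O2 and 38.3 to 43.2 CPM in shNC. All 5 epithelial markers were present, and no endothelial, leukocyte or distal nephron marker averaged 1 CPM. Of 4 fibroblast markers 3 averaged at least 1 CPM, with sums of 142 to 170 CPM in shYAP1_H2O2, 234 to 253 CPM in shNC_H2O2 and 108 to 111 CPM in shNC, and their part in the results below was not tested. Mitochondrially encoded genes took 11.3% of counts in shYAP1_H2O2 replicate 3 and 13.9% in shNC replicate 4, against 4.54% to 5.64% in the other 10 libraries. Both libraries were kept, and the members whose calls changed without them are given below. YAP1 averaged 128 ± 11.7 CPM in the libraries labelled as knockdown, 156 ± 5.19 CPM in shNC_H2O2 and 133 ± 7.25 CPM in shNC (SD, n = 4 each). It was lower than in shNC_H2O2 by 0.29 on the log2 scale (adjusted p = 0.00346 in edgeR; p = 0.0286 in an exact two-sided permutation test, the smallest that 70 assignments allow) and did not pass against shNC (-0.05, adjusted p = 0.636). Every direction given for the knockdown therefore refers to libraries labelled shYAP1_H2O2.

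With H2O2 most of the pathway was lower relative to all counted RNA, a scale on which fewer expressing cells and less RNA per cell cannot be told apart. In shNC_H2O2 against shNC, 22 of the 33 genes fell, 3 rose and 8 were not called (edgeR quasi-likelihood test, Benjamini-Hochberg adjusted p under 0.05 over all tested genes). Of all tested genes 22.6% were called lower and 23.9% higher in this comparison, 46.6% in all. Here and below such shares stand beside the counts and are not a test of them. The members were chosen with earlier results of these data known. Their counting depth was not matched to that of all tested genes. The median log2 fold change of the 33 genes was -0.63, against 0.00 over all tested genes. At least 2-fold falls were called for 10 of the 33, ALDOA, TPI1, GAPDH, PGK1, PGAM1, ENO1, ENO2, LDHA, PDK1 and MPC2, where 6.5% of all tested genes fell that far, and none of the 33 rose that far, as 7.25% of all tested genes did. The groups did not overlap for 24 of the 33, against 48% of all tested genes.

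In shYAP1_H2O2 against shNC_H2O2, 20 of the 33 genes were higher, 2 were lower and 11 were not called, where 22% of all tested genes were called higher and 21% lower, 43% in all. The median log2 fold change was 0.34, against 0.00 over all tested genes to 2 decimals. At least 2-fold rises were called for 4 of the 33, HK2, ALDOA, PDK1 and MPC2, where 5.07% of all tested genes rose that far, and none fell that far, as 5.62% of all tested genes did. The groups did not overlap for 24 of the 33, against 45.2% of all tested genes. Without scaling beyond the library sizes, 15 of the 33 were called higher.

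In shYAP1_H2O2 against shNC, 5 of the 33 genes were higher, 15 lower and 13 not called, where 17.4% of all tested genes were called higher and 15.1% lower, and the median log2 fold change was -0.21, against 0.00 over all tested genes. In all, 32.5% of tested genes were called. At least 2-fold changes were called for HK2, which was higher (3.24% of all tested genes), and for PGAM1 and LDHA, which were lower (2.56%). The 3 comparisons share libraries, so their values are given side by side and no overlap between them is counted. Together the 33 genes took 1.38%, 1.38%, 1.22% and 1.38% of all counts in shYAP1_H2O2 replicates 1 to 4, 1.02%, 1.04%, 1.01% and 1.01% in shNC_H2O2, and in shNC 2%, 1.98%, 2.01% and 1.59%. The groups did not overlap in this share, which was lowest in every shNC_H2O2 library. The lowest values of shYAP1_H2O2 and of shNC were those of the libraries with a high mitochondrial share, and these were 1.38% and 1.85% when mitochondrially encoded genes were left out of the total.

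**Figure D1:**
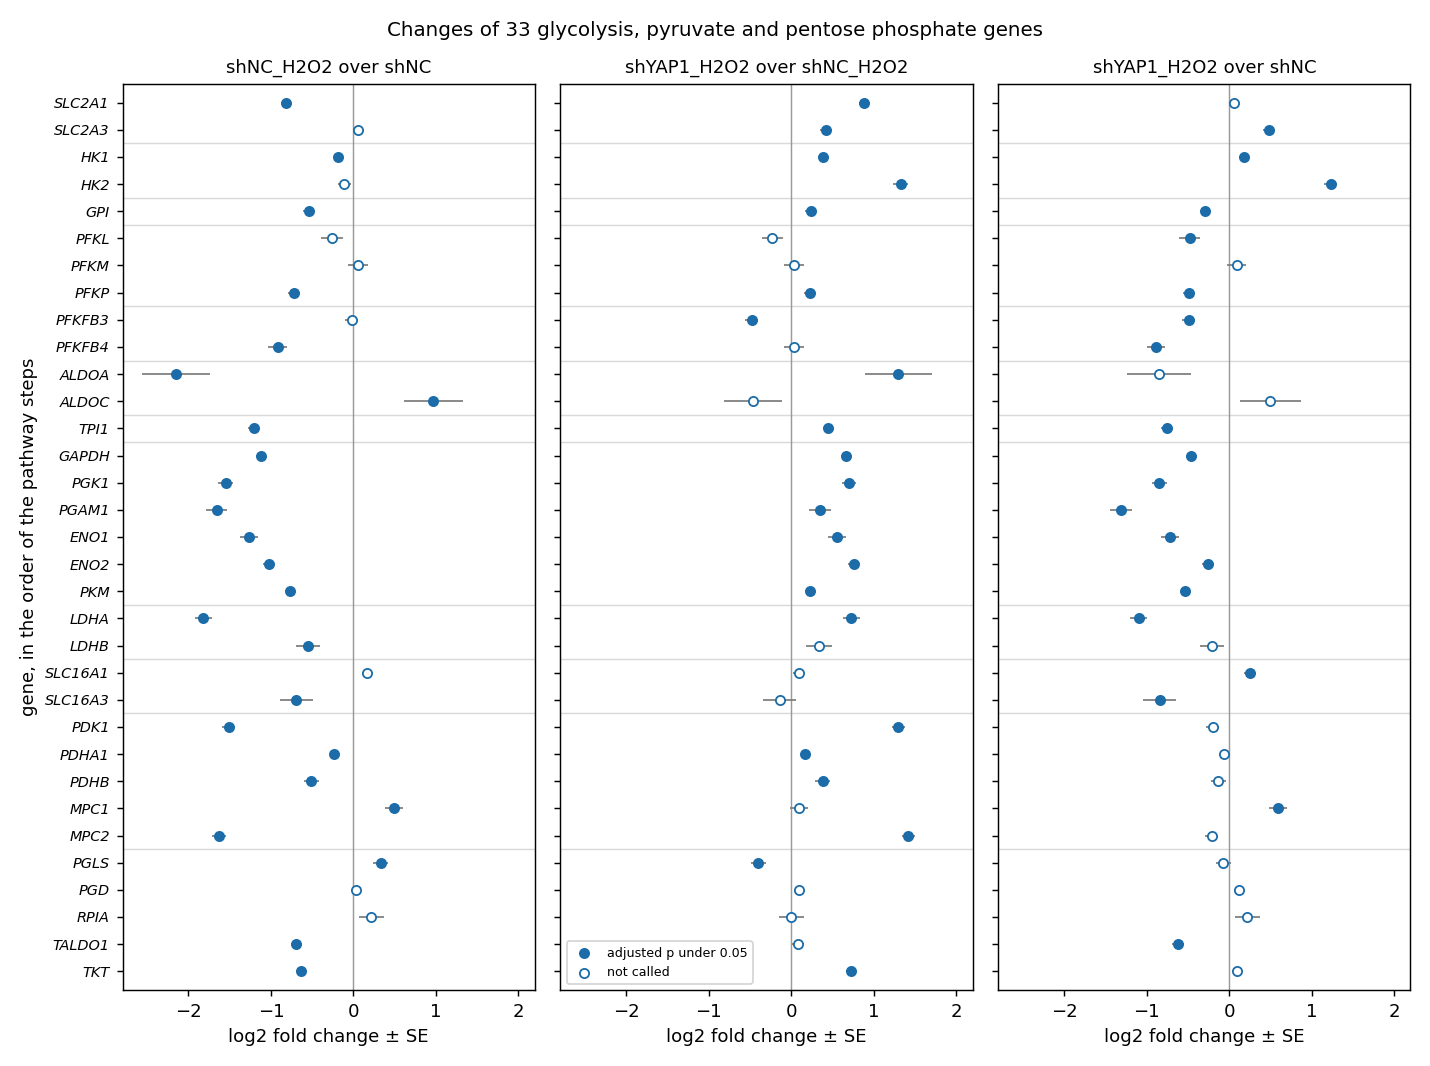
Log2 fold change ± SE of each of the 33 genes (rows, in pathway order, with a line between steps) in shNC_H2O2 over shNC (left), shYAP1_H2O2 over shNC_H2O2 (middle) and shYAP1_H2O2 over shNC (right), n = 4 libraries per group. Filled points passed an adjusted p of 0.05. The 6 genes from GAPDH to PKM lie below 0 on the left (-1.66 to -0.77), above 0 in the middle (0.23 to 0.76) and below 0 on the right (-1.31 to -0.26).

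Several glycolysis genes are known targets of the hypoxia-inducible factors HIF1A and EPAS1 and of MYC, which bind short motifs in promoters. The 250 bases before the RefSeq start (GRCh38.p14) were searched on both strands for the hypoxia response core in its forms ACGTG and GCGTG. The palindrome CACGTG, the core that MYC binds, holds ACGTG on each strand and so gave a match on each. Sequences were found for 31 of the 33 genes, not for SLC2A3 and SLC16A1. At least 1 promoter of 23 of these 31 genes held such a core (74.2%), as did 47.4% of all 27305 genes in the RefSeq set. By promoter rather than by gene the shares were 31 of 59 (52.5%) and 43.2% of 35116, since genes with more annotated starts have more chances to hold a core. The stretches printed here are those free of annotated exons. They are from 3 genes of large change with cores (HK2, PGK1 and LDHA) and the member most abundant per kilobase (GAPDH). The last are from 2 genes that fell with H2O2, rose in shYAP1_H2O2 over shNC_H2O2 and hold no core in the stretch (MPC2 and TKT). These examples were picked, and whether cores go with change was not tested. PGAM1, SLC2A1 and PKM, which fell with H2O2, held no core in the 250 bases. PGD and RPIA, called in no comparison with all 12 libraries, held 3 and 1. Each stretch lies before an annotated RefSeq start, of which a gene can have several. The HK2, PGK1, GAPDH and MPC2 stretches lie inside the annotated span of their genes, so these starts are not the first ones annotated. Capitals mark the cores, on either strand, and each sequence reads 5′ to 3′ on the strand of its gene.
HK2, chr2:74834920-74835169, plus strand, 250 bases up to the start: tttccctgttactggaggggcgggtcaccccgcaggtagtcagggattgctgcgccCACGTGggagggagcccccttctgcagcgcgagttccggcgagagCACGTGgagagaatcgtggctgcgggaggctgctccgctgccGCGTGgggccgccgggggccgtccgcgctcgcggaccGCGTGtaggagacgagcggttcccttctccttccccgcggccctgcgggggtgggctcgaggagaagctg
PGK1, chrX:78103998-78104173, plus strand, 176 bases: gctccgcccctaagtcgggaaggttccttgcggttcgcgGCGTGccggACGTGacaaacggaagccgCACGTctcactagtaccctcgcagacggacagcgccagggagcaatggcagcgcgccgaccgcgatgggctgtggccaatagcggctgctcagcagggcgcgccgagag
LDHA, chr11:18394313-18394387, plus strand, 75 bases: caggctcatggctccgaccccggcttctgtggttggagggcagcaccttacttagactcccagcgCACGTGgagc
GAPDH, chr12:6535142-6535263, plus strand, 122 bases up to the start: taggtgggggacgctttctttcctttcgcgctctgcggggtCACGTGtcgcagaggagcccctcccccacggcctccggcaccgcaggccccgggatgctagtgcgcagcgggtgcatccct
MPC2, chr1:167936113-167936246, minus strand, 134 bases: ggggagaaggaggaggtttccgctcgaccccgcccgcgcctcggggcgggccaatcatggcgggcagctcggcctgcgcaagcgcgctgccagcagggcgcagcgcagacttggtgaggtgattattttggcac
TKT, chr3:53256053-53256272, minus strand, 220 bases: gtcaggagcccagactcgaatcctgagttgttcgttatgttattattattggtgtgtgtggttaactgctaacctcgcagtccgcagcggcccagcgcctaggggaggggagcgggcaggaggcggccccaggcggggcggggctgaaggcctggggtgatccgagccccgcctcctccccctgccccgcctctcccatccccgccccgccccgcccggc
The HK2 stretch held 6 matches, 4 of them from a pair of CACGTG palindromes. The 250 bases before an earlier HK2 start (chr2:74833877-74834126), which are not printed, held 3 matches. The PGK1 stretch held 3 matches, and the LDHA and GAPDH stretches held 2 each, from a single CACGTG. The whole 250 bases before this LDHA start held 5 matches, of which the other 3 lie in bases that are annotated as exon and are not printed. A match describes letters only, and binding was not measured.

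Glucose uptake is the first step, and of the glucose transporters among the 33 genes SLC2A1 (GLUT1), the transporter of basal uptake, had the higher transcript level per kilobase in every group. SLC2A1 averaged 782 ± 33.8 CPM in shYAP1_H2O2, 425 ± 10.7 CPM in shNC_H2O2 and 749 ± 33.2 CPM in shNC. It fell by 43.2% with H2O2 (log2 fold change -0.82 ± 0.06 SE, adjusted p = 9.2e-09) and was 84% higher in shYAP1_H2O2 than in shNC_H2O2 (0.88 ± 0.06, adjusted p = 7.1e-09), and against shNC the difference was 0.06 ± 0.06 (adjusted p = 0.421). SLC2A3 (GLUT3), a transporter of high affinity for glucose, did not pass with H2O2 (0.06, adjusted p = 0.513) and was higher in shYAP1_H2O2 than in shNC_H2O2 (0.42 ± 0.07, adjusted p = 0.000199) and than in shNC (0.48 ± 0.07, adjusted p = 9.9e-05).

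Hexokinase traps glucose in the cell as glucose phosphate. HK2, the isozyme induced in many growing cells, had 156.1, 172.4, 130.4 and 160.2 CPM in shYAP1_H2O2 replicates 1 to 4, 61.24, 60.75, 62.74 and 61.44 CPM in shNC_H2O2, and in shNC 68.55, 67.96, 71.14 and 57.23 CPM. All 4 shYAP1_H2O2 libraries lay above all 8 others, and the other groups overlapped. HK2 was 2.52 times as high as in shNC_H2O2 (1.33 ± 0.09, adjusted p = 7.4e-09) and 2.34 times as high as in shNC (1.23 ± 0.08, adjusted p = 4.2e-08). With H2O2 alone its difference was -0.11 ± 0.08 (adjusted p = 0.326), and it passed at -0.18 without the 2 libraries of high mitochondrial share (adjusted p = 0.000239). HK2 also passed at -0.26 with the shift of neighbouring genes removed, as described below (adjusted p = 0.0355). HK1, the isozyme found in most tissues, had 163.4, 168.3, 161.5 and 161.3 CPM in shYAP1_H2O2, 125.3, 123.1, 132.8 and 123.4 CPM in shNC_H2O2, and in shNC 147.3, 148, 151.5 and 130.2 CPM. Its shYAP1_H2O2 libraries were again above all others, by less. HK1 was higher in shYAP1_H2O2 than in shNC_H2O2 (0.38 ± 0.06, adjusted p = 9.1e-05) and lower in shNC_H2O2 than in shNC (-0.19 ± 0.06, adjusted p = 0.0131), a call that was lost with library sizes alone (-0.12, adjusted p = 0.245).

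Between glucose phosphate and fructose bisphosphate GPI and PFKP passed in both comparisons. GPI, the isomerase of glucose phosphate, fell with H2O2 (-0.54 ± 0.07, adjusted p = 7.4e-06) and was 18.2% higher in shYAP1_H2O2 than in shNC_H2O2 (0.24 ± 0.07, adjusted p = 0.00824; 0.17 and adjusted p = 0.0569 with library sizes alone). Phosphofructokinase, the committed step of glycolysis, has a platelet, a liver and a muscle isozyme. The platelet isozyme PFKP averaged 340 ± 8.53 CPM in shYAP1_H2O2, 289 ± 4.41 CPM in shNC_H2O2 and 477 ± 45.8 CPM in shNC. It fell by 0.72 on the log2 scale with H2O2 (adjusted p = 2.5e-07) and was 0.23 higher in shYAP1_H2O2 than in shNC_H2O2 (adjusted p = 0.00891), which was lost with library sizes alone (0.17, adjusted p = 0.12). With all 12 libraries the muscle isozyme PFKM passed in no comparison (0.06 with H2O2, 0.03 in shYAP1_H2O2 over shNC_H2O2). The liver isozyme PFKL did not pass with H2O2 (-0.26, adjusted p = 0.11), nor in shYAP1_H2O2 over shNC_H2O2 (-0.23, adjusted p = 0.16), and its calls changed with the settings given below.

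PFKFB3 and PFKFB4 make and break fructose 2,6-bisphosphate, which activates phosphofructokinase. It differs from the fructose bisphosphate that phosphofructokinase makes. PFKFB3, whose kinase activity prevails, averaged 302 ± 18.8 CPM in shYAP1_H2O2, 420 ± 23.4 CPM in shNC_H2O2 and 426 ± 48 CPM in shNC, so that it fell by 28.1% in shYAP1_H2O2 relative to shNC_H2O2 (-0.48 ± 0.08, adjusted p = 0.000173) and did not pass with H2O2 alone (-0.02, adjusted p = 0.874). PFKFB4 averaged 18 ± 2.16 CPM in shYAP1_H2O2, 17.6 ± 1.24 CPM in shNC_H2O2 and 33.4 ± 5.08 CPM in shNC. It fell by 0.92 on the log2 scale with H2O2 (SE 0.11, adjusted p = 7.5e-06) and differed by 0.03 between the groups given H2O2 (adjusted p = 0.869). With all 12 libraries PFKFB3 was the only gene of the upper steps, from uptake to aldolase, that was called lower in shYAP1_H2O2 against shNC_H2O2.

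Aldolase cleaves fructose bisphosphate into the triose phosphates. ALDOA, the isoform of most tissues, was counted at 6.944, 5.908, 13.52 and 5.485 CPM in shYAP1_H2O2 replicates 1 to 4, 3.073, 3.642, 3.234 and 2.908 CPM in shNC_H2O2, and in shNC 9.36, 10.52, 8.801 and 28.32 CPM. Its highest values in shYAP1_H2O2 and in shNC were those of the 2 libraries of high mitochondrial share. Per kilobase of transcript its mean level was 4.97 CPM in shYAP1_H2O2, 2.01 CPM in shNC_H2O2 and 8.89 CPM in shNC, whereas TPI1, the next enzyme, had 483 CPM in shYAP1_H2O2, 354 CPM in shNC_H2O2 and 818 CPM in shNC. Of its exon bases 42.3% lie within ENSG00000285043, a gene annotated over it, and how reads shared by overlapping genes were counted is not given in the sources used here, so ALDOA is uncertain in level and in change. As counted it was lower in shNC_H2O2 than in shNC (-2.15 ± 0.41, adjusted p = 0.000998; -1.58 without shNC replicate 4). The rise in shYAP1_H2O2 over shNC_H2O2 (1.30 ± 0.41, adjusted p = 0.0235) was lost without shYAP1_H2O2 replicate 3 (0.93, adjusted p = 0.0768) and without either shNC_H2O2 replicate 1 or 4 (adjusted p = 0.0552 and 0.058).

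ALDOC, the aldolase of brain, had 0.4421, 0.6688, 0.5719 and 0.4252 CPM in shYAP1_H2O2, 0.7366, 0.812, 0.7925 and 0.5584 CPM in shNC_H2O2, and in shNC 0.416, 0.1146, 0.5281 and 0.428 CPM, from 5 to 33 counts per library. It was called higher with H2O2 (0.97 ± 0.36, adjusted p = 0.037). That call was lost without any of 5 single libraries (shNC replicate 1 or 2, shNC_H2O2 replicate 1, 2 or 3), with the largest adjusted p of 0.0896 without shNC replicate 2.

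The triose phosphate isomerase TPI1, which passes both trioses to the payoff phase, had 617.7, 590.2, 558.3 and 612 CPM in shYAP1_H2O2, 439.2, 437, 440.4 and 425 CPM in shNC_H2O2, and in shNC 1058, 1036, 1063 and 869.5 CPM. The 3 groups did not overlap, with shNC_H2O2 lowest and shNC highest. TPI1 fell by 56.7% with H2O2 (log2 fold change -1.21 ± 0.07, adjusted p = 1e-09) and was 36.5% higher in shYAP1_H2O2 than in shNC_H2O2 (0.45 ± 0.07, adjusted p = 6.1e-05).

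All 6 genes of the ATP-yielding phase, from GAPDH to PKM, fell with H2O2, and all 6 were higher in shYAP1_H2O2 than in shNC_H2O2 and lower than in shNC. GAPDH, which makes the NADH of glycolysis and was the most abundant of the 33 per kilobase in every group, had 2297, 2363, 2583 and 2303 CPM in shYAP1_H2O2, 1471, 1505, 1578 and 1487 CPM in shNC_H2O2, and in shNC 3287, 3266, 3391 and 3196 CPM. The groups were apart in every library, those of high mitochondrial share included. GAPDH fell by 54% with H2O2 (-1.12 ± 0.06, adjusted p = 4.5e-10) and was 58% higher in shYAP1_H2O2 than in shNC_H2O2 (0.66 ± 0.06, adjusted p = 2.6e-07). PGK1, which makes the first ATP of the phase, had 630.9, 638.9, 510.7 and 643.8 CPM in shYAP1_H2O2, 365.9, 389.2, 362.7 and 378 CPM in shNC_H2O2, and in shNC 1178, 1099, 1196 and 905 CPM. It fell by 65.8% with H2O2 (-1.55 ± 0.09, adjusted p = 1.8e-09) and was 62.1% higher in shYAP1_H2O2 than in shNC_H2O2 (0.70 ± 0.09, adjusted p = 1.5e-05).

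PGAM1, the phosphoglycerate mutase, had 340.9, 329.5, 276.9 and 354.2 CPM in shYAP1_H2O2, 254.7, 261.7, 248.1 and 256.8 CPM in shNC_H2O2, and in shNC 879.6, 877.9, 909.9 and 550.3 CPM. Every shNC library was above the others, the lowest being the one with the highest mitochondrial share. PGAM1 fell by 68.3% with H2O2 (-1.66 ± 0.13, adjusted p = 8.2e-08). Its difference between shYAP1_H2O2 and shNC_H2O2 was the least secure of the phase (0.35 ± 0.13, adjusted p = 0.0383). It did not pass with library sizes alone (0.29, adjusted p = 0.149), without the filter on low counts (adjusted p = 0.13), or without any single library of these groups other than shYAP1_H2O2 replicate 3 (adjusted p up to 0.0993). Of the 33 genes PGAM1 also stayed furthest below untreated cells in shYAP1_H2O2 (-1.31 ± 0.13 against shNC, adjusted p = 2.6e-06).

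The enolases, which make phosphoenolpyruvate, both fell with H2O2 and were both higher in shYAP1_H2O2 than in shNC_H2O2. ENO1, the isoform of most tissues, had 2202, 2183, 1737 and 2168 CPM in shYAP1_H2O2, 1398, 1444, 1393 and 1396 CPM in shNC_H2O2, and in shNC 3662, 3627, 3738 and 2585 CPM. ENO2, known as the neuronal enolase, had 236.7, 247.6, 205.2 and 244.4 CPM in shYAP1_H2O2, 142.6, 141.2, 130 and 138.2 CPM in shNC_H2O2, and in shNC 288.2, 287.8, 291.5 and 251.7 CPM. Neither gene had groups that overlapped. With H2O2 ENO1 fell by 1.27 and ENO2 by 1.02 on the log2 scale (SE 0.11 and 0.07, adjusted p = 9.8e-08 and 1.1e-08). In shYAP1_H2O2 over shNC_H2O2 they were higher by 0.56 ± 0.11 (ENO1, adjusted p = 0.000511) and 0.76 ± 0.07 (ENO2, adjusted p = 4.5e-07). PKM, the pyruvate kinase, averaged 2255 ± 101 CPM in shYAP1_H2O2, 1920 ± 24.7 CPM in shNC_H2O2 and 3278 ± 110 CPM in shNC. Its fall with H2O2 was 0.77 ± 0.06 on the log2 scale (log2 fold change -0.77, adjusted p = 1.8e-08), and its rise in shYAP1_H2O2 over shNC_H2O2 was 17.5% (0.23 ± 0.06, adjusted p = 0.00324), lost with library sizes alone (0.17, adjusted p = 0.0586). Processed pseudogenes of GAPDH, TPI1, PGK1, PGAM1, ENO1 and LDHA exist in the genome, and how reads that match several places were handled is not given in the sources used here. PGAM4, a retrocopy of PGAM1, averaged 2.7 ± 1 CPM in shYAP1_H2O2, 2.46 ± 0.211 CPM in shNC_H2O2 and 6.33 ± 2.73 CPM in shNC.

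**Figure D2:**
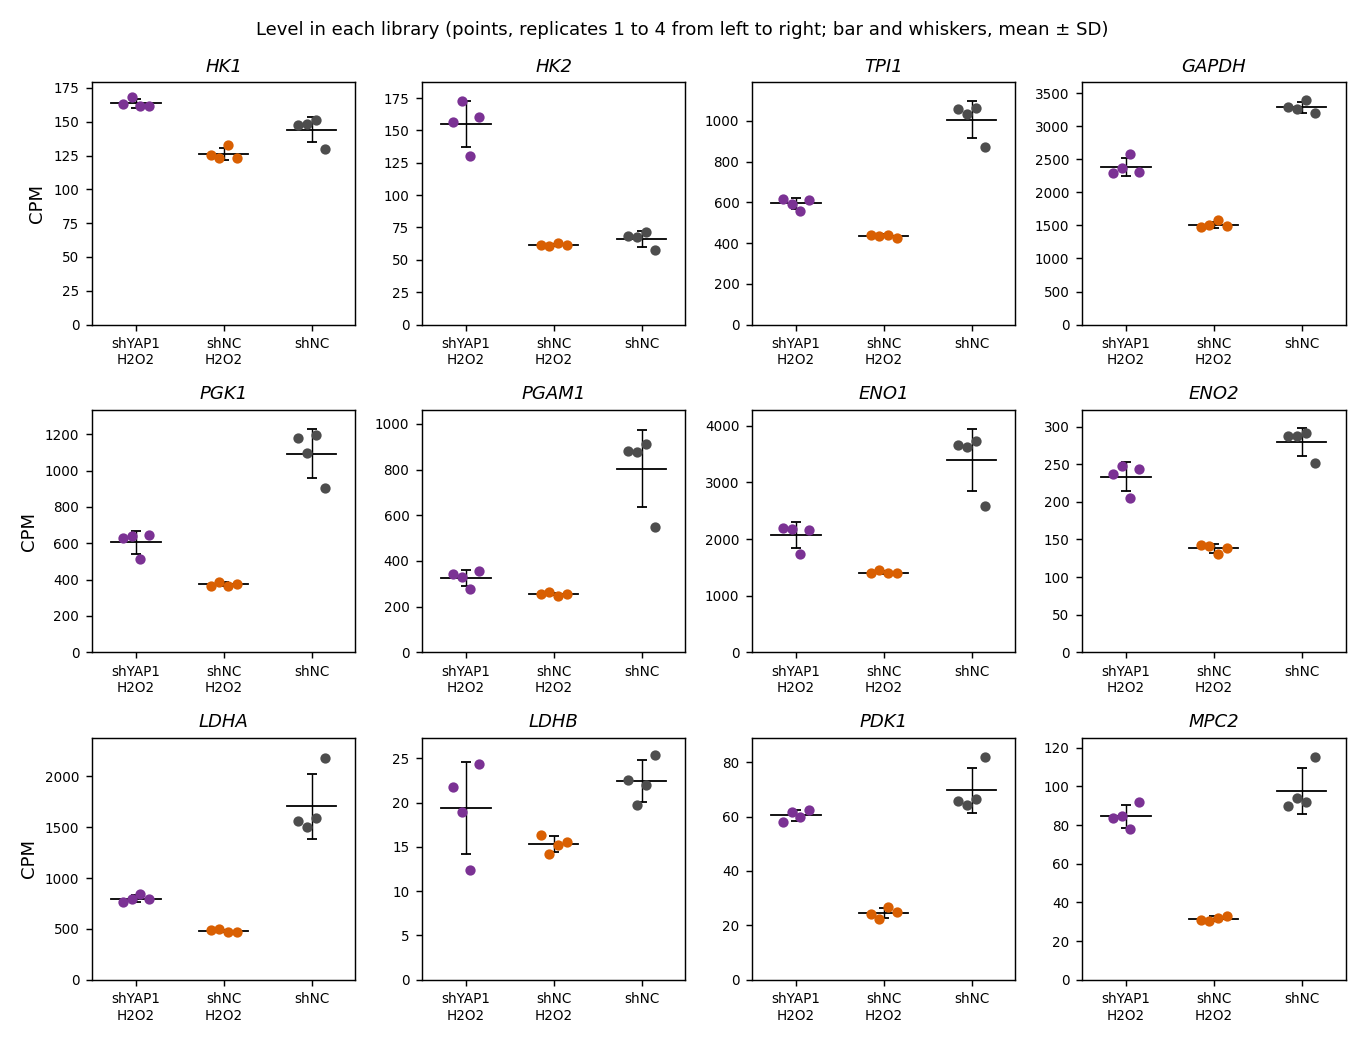
CPM of 12 of the genes in each library (points, replicates 1 to 4 from left to right in each group), with the mean and SD of each group of 4, in shYAP1_H2O2 (left), shNC_H2O2 (middle) and shNC (right); each panel has its own linear axis from 0. In HK2 the shYAP1_H2O2 libraries (130.4 to 172.4 CPM) stand above both other groups, in LDHA and PGAM1 the shNC libraries do, and in MPC2 and PDK1 shNC_H2O2 stands below both other groups.

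Lactate dehydrogenase reduces pyruvate to lactate and restores NAD. LDHA, its muscle-type subunit, had 766.1, 790.7, 846.4 and 789.7 CPM in shYAP1_H2O2, 487, 494.8, 473.5 and 472.9 CPM in shNC_H2O2, and in shNC 1558, 1501, 1588 and 2183 CPM. The 3 groups were apart, and the highest value was that of shNC replicate 4. LDHA fell by 71.8% with H2O2 (log2 fold change -1.82 ± 0.10, adjusted p = 6.5e-10; -1.69 without shNC replicate 4), and was 65.6% higher in shYAP1_H2O2 than in shNC_H2O2 (0.73 ± 0.10, adjusted p = 1.9e-05). Against shNC, LDHA in shYAP1_H2O2 fell by 53.2% (-1.10 ± 0.10, adjusted p = 5.6e-07). LDHB, the heart-type subunit, had 21.77, 18.98, 12.38 and 24.38 CPM in shYAP1_H2O2, 16.36, 14.25, 15.22 and 15.59 CPM in shNC_H2O2, and in shNC 22.55, 19.7, 22.03 and 25.39 CPM. The lowest LDHB value was that of shYAP1_H2O2 replicate 3. The shYAP1_H2O2 libraries overlapped both other groups, and without replicate 3 they overlapped shNC but lay above shNC_H2O2. LDHB fell with H2O2 (-0.55 ± 0.15, adjusted p = 0.00904) and did not pass in shYAP1_H2O2 over shNC_H2O2 (0.34, adjusted p = 0.0933), where it passed at 0.50 without shYAP1_H2O2 replicate 3 (adjusted p = 0.000844). Of its exon bases 33.4% lie within ENSG00000285854, so LDHB is uncertain to that extent.

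Of the lactate carriers SLC16A1 (MCT1), which takes up and exports lactate, did not pass with H2O2 (0.17, adjusted p = 0.0686), nor in shYAP1_H2O2 over shNC_H2O2 (0.09, adjusted p = 0.341; 0.16 and adjusted p = 0.0142 without shYAP1_H2O2 replicate 3), and was higher in shYAP1_H2O2 than in shNC (0.25 ± 0.07, adjusted p = 0.0121). SLC16A3 (MCT4), the exporter of glycolytic cells, had 135.6, 137.8, 85.38 and 135.6 CPM in shYAP1_H2O2, 136.5, 141.9, 132.8 and 134.4 CPM in shNC_H2O2, and in shNC 254.6, 250.5, 249.9 and 127.5 CPM. The libraries of high mitochondrial share were the lowest of their groups, and shNC replicate 4 fell among the treated libraries. SLC16A3 was lower with H2O2 (-0.69 ± 0.20, adjusted p = 0.0131; -0.89 without the 2 libraries; 0.0578 as adjusted p without the filter on low counts). Between shYAP1_H2O2 and shNC_H2O2 its difference was -0.14 ± 0.20 (adjusted p = 0.608), and 0.00 without those libraries.

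The largest rises in shYAP1_H2O2 over shNC_H2O2, beside HK2 and ALDOA, were at the entry of pyruvate into mitochondria. PDK1, a kinase that switches pyruvate dehydrogenase off, had 57.97, 61.84, 59.96 and 62.27 CPM in shYAP1_H2O2, 24.05, 22.42, 26.85 and 24.78 CPM in shNC_H2O2, and in shNC 65.64, 64.36, 66.61 and 81.84 CPM. The highest shNC_H2O2 library lay at 26.85 CPM and the lowest of the 8 others at 57.97 CPM. PDK1 fell by 64.8% with H2O2 (-1.51 ± 0.08, adjusted p = 8.5e-10) and was 2.47 times as high in shYAP1_H2O2 as in shNC_H2O2 (1.30 ± 0.08, adjusted p = 7.4e-09). Against shNC it did not pass (-0.20 ± 0.08, adjusted p = 0.0686).

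MPC1 and MPC2 together form the carrier that brings pyruvate across the inner mitochondrial membrane. MPC2 had 83.69, 84.47, 77.75 and 91.98 CPM in shYAP1_H2O2, 30.71, 30.46, 32.15 and 33.18 CPM in shNC_H2O2, and in shNC 89.79, 93.99, 91.81 and 115.1 CPM. As for PDK1, shNC_H2O2 stood below every other library. MPC2 fell by 67.6% with H2O2 (-1.63 ± 0.08, adjusted p = 3.2e-10) and was 2.67 times as high in shYAP1_H2O2 as in shNC_H2O2 (1.42 ± 0.08, adjusted p = 2.7e-09), and it did not pass against shNC (-0.21, adjusted p = 0.0581). Its partner MPC1 averaged 10.6 ± 1.63 CPM in shYAP1_H2O2, 9.96 ± 0.854 CPM in shNC_H2O2 and 7.08 ± 0.291 CPM in shNC, was higher with H2O2 (0.49 ± 0.11, adjusted p = 0.00194) and did not pass between the groups given H2O2 (0.09, adjusted p = 0.534). Of the exon bases of MPC2, 22.5% lie within exons of DCAF6, and MPC2 is uncertain to that extent.

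PDHA1 and PDHB encode the subunits of the pyruvate dehydrogenase enzyme that PDK1 phosphorylates. PDHB fell with H2O2 (-0.51 ± 0.09, adjusted p = 0.000196) and was higher in shYAP1_H2O2 than in shNC_H2O2 (0.38 ± 0.09, adjusted p = 0.00238). PDHA1 fell by 14.9% with H2O2 (-0.23 ± 0.05, adjusted p = 0.00205) and was 12.7% higher in shYAP1_H2O2 than in shNC_H2O2 (0.17 ± 0.05, adjusted p = 0.0163). Both PDHA1 calls were lost with library sizes alone (adjusted p = 0.086 and 0.22), and 21.3% of its exon bases lie within MAP3K15.

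In the pentose phosphate pathway TKT and TALDO1 fell with H2O2, PGLS rose, and PGD and RPIA did not pass. TKT, the transketolase of the non-oxidative arm, averaged 815 ± 30.1 CPM in shYAP1_H2O2, 491 ± 14.1 CPM in shNC_H2O2 and 759 ± 65.4 CPM in shNC. It fell by 35.3% with H2O2 (-0.63 ± 0.07, adjusted p = 1.1e-06) and was 65.9% higher in shYAP1_H2O2 than in shNC_H2O2 (0.73 ± 0.07, adjusted p = 3.1e-07). TALDO1, the transaldolase of the same arm, averaged 90.4 ± 3.53 CPM in shYAP1_H2O2, 85.8 ± 2.13 CPM in shNC_H2O2 and 139 ± 14.9 CPM in shNC. It was lower with H2O2 by about as much as TKT (-0.69 ± 0.07, adjusted p = 1.1e-06) and did not pass between the groups given H2O2 (0.08, adjusted p = 0.43). PGD, the phosphogluconate dehydrogenase that yields NADPH, passed in no comparison with all 12 libraries (0.03 with H2O2, adjusted p = 0.718; 0.09 in shYAP1_H2O2 over shNC_H2O2, adjusted p = 0.242). RPIA, the ribose phosphate isomerase, passed in none of these either (0.22 with H2O2 and 0.00 in shYAP1_H2O2 over shNC_H2O2). With shYAP1_H2O2 replicate 3 and shNC replicate 4 left out both were called in shYAP1_H2O2 over shNC_H2O2, as given below. PGLS, the lactonase of the oxidative arm, was higher with H2O2 (0.33 ± 0.09, adjusted p = 0.00513) and lower in shYAP1_H2O2 than in shNC_H2O2 (-0.40 ± 0.09, adjusted p = 0.00138).

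Where several members serve the same step, their balance per kilobase of transcript was described without a test, over the members only. HK2 made up 37% ± 2.44 of HK1 and HK2 together in shYAP1_H2O2, 23.4% ± 0.406 in shNC_H2O2 and 22.3% ± 0.506 in shNC (SD, n = 4), and in every shYAP1_H2O2 library it was at least 33.5%, above the highest library of the other groups (23.7%). HKDC1, a hexokinase-domain gene outside the 33, is not part of this sum and had more CPM than HK1 and HK2 together in every group, as given below. With all exons in place of the principal transcript as the length, the HK2 shares were 49.4% in shYAP1_H2O2, 33.6% in shNC_H2O2 and 32.2% in shNC. SLC2A3 made up 14.9% ± 0.681 of the pair of transporters in shYAP1_H2O2, 19.4% ± 1.11 in shNC_H2O2 and 11.6% ± 0.713 in shNC. PFKP made up 63.7% ± 2.92 of phosphofructokinase in shYAP1_H2O2, 57.5% ± 0.659 in shNC_H2O2 and 67% ± 2.86 in shNC. ENO2 made up 8.57% ± 0.302 of ENO1 and ENO2 together in shYAP1_H2O2, 7.52% ± 0.255 in shNC_H2O2 and 6.46% ± 0.674 in shNC. Among the members compared in this way the one with the largest share was the same in every group except in lactate transport, where SLC16A3 held 35.2% ± 2.84 in shYAP1_H2O2, 39.3% ± 1.11 in shNC_H2O2 and 53% ± 7.7 in shNC, with 41.5% in shNC replicate 4 as the lowest of its group. With all exons as the length SLC16A3 held 26.2% in shYAP1_H2O2, 29.7% in shNC_H2O2 and 42.6% in shNC, so that SLC16A1 was then the larger in each group.

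**Figure D3:**
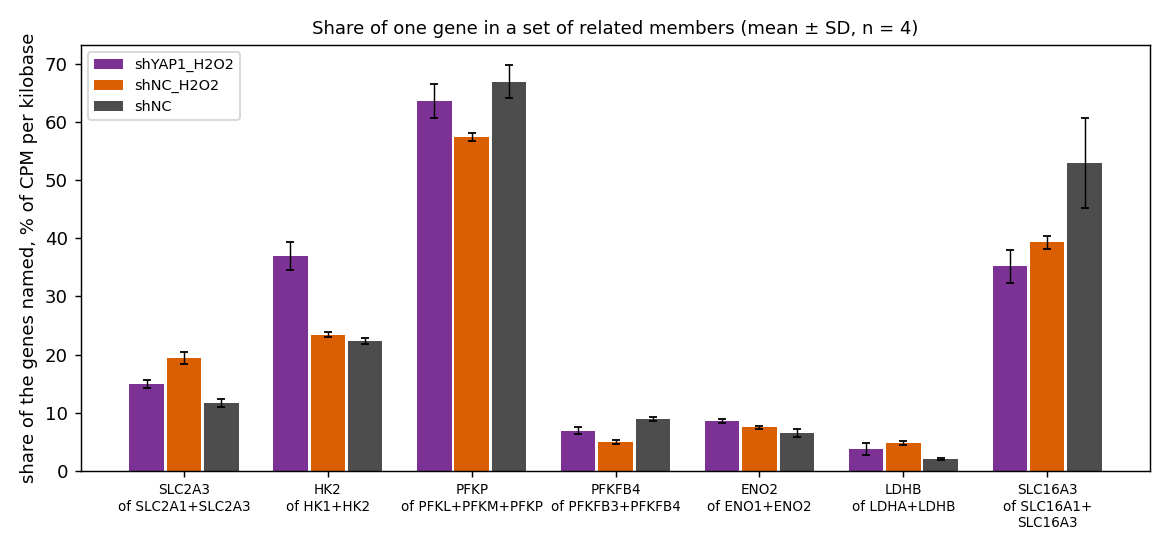
Share of 1 gene in the summed level of the members named under each bar, in percent of CPM per kilobase of transcript, as mean and SD of 4 libraries in shYAP1_H2O2 (left bar), shNC_H2O2 (middle) and shNC (right). HK2 as a share of HK1 and HK2 is highest in shYAP1_H2O2 (37%, against 23.4% in shNC_H2O2 and 22.3% in shNC), and SLC16A3 is highest in shNC (53%).

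In these libraries fold changes of neighbouring genes can shift together along a chromosome, so the fit was repeated with that shift removed. For each library the median deviation from the mean log2 CPM was taken over a window of 51 genes, the gene itself included. This median was entered as an offset in the fit. The falls of the payoff phase and of LDHA and PDK1 with H2O2 stayed at -1.68 to -0.88, and MPC2, on chromosome 1, had -1.10 in place of -1.63 with H2O2 and 0.97 in place of 1.42 in shYAP1_H2O2 over shNC_H2O2, still called in each. GPI, on chromosome 19, had a larger fall (-0.90, adjusted p = 5.6e-08) and a larger rise (0.52, adjusted p = 3.4e-05). PGLS, on the same chromosome, lost both calls (-0.14 and adjusted p = 0.0561 with H2O2; 0.00 and adjusted p = 0.988 in shYAP1_H2O2 over shNC_H2O2). PFKL, on chromosome 21, was then called lower with H2O2 (-0.71, adjusted p = 1.1e-05) and higher in shYAP1_H2O2 over shNC_H2O2 (0.30, adjusted p = 0.017), the reverse of its fitted sign. Under other settings PFKL was called lower in shYAP1_H2O2 over shNC_H2O2, at -0.23 with 2 groups only (adjusted p = 0.00746), at -0.23 without shNC replicate 4 (adjusted p = 0.00263) and at -0.18 without the 2 libraries of high mitochondrial share (adjusted p = 9.9e-05), so its direction in this comparison depends on the setting. With H2O2 it was also called lower without shNC replicate 4 (-0.41, adjusted p = 3e-05). PDHB and PGAM1 lost their rises in shYAP1_H2O2 (0.14 and 0.25, adjusted p = 0.279 and 0.186), and PDHA1 both calls (adjusted p = 0.0807 and 0.0948). HK2 was then called lower with H2O2 (-0.26, adjusted p = 0.0355) and SLC16A1 higher (0.26, adjusted p = 0.0196). With this shift removed, 23 of the 33 genes were called lower and 3 higher with H2O2, where 21.2% of all tested genes were called lower and 21.8% higher. In shYAP1_H2O2 over shNC_H2O2 it left 21 members higher and 1 lower, where 19.6% of all tested genes were called higher and 19.4% lower.

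Without shYAP1_H2O2 replicate 3 and shNC replicate 4, the libraries of high mitochondrial share, 13 calls were gained and none was lost among the 33 genes in the 3 comparisons. The share of all tested genes called was also larger, at 29.6% lower and 29.8% higher with H2O2. With H2O2, HK2 and PFKL (-0.41, adjusted p = 1e-11) were then called lower, as was PFKFB3 (-0.10, adjusted p = 0.0155), and SLC16A1 was called higher (0.14, adjusted p = 0.001). In shYAP1_H2O2 over shNC_H2O2, where 28.8% of all tested genes were then called higher and 28.5% lower, PFKL was called lower. In the same comparison LDHB (0.50, adjusted p = 9e-07), SLC16A1 (0.16, adjusted p = 0.000138), RPIA (0.15, adjusted p = 0.0265), PFKM (0.13, adjusted p = 0.00213) and PGD (0.09, adjusted p = 0.0181) were called higher. Against shNC, RPIA was then called higher in shYAP1_H2O2 (0.26, adjusted p = 0.000771), and ALDOA (-0.66, adjusted p = 1.8e-05) and PGLS (-0.22, adjusted p = 0.00049) lower. The part of the mitochondrial share in these values was not tested.

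**Figure D4:**
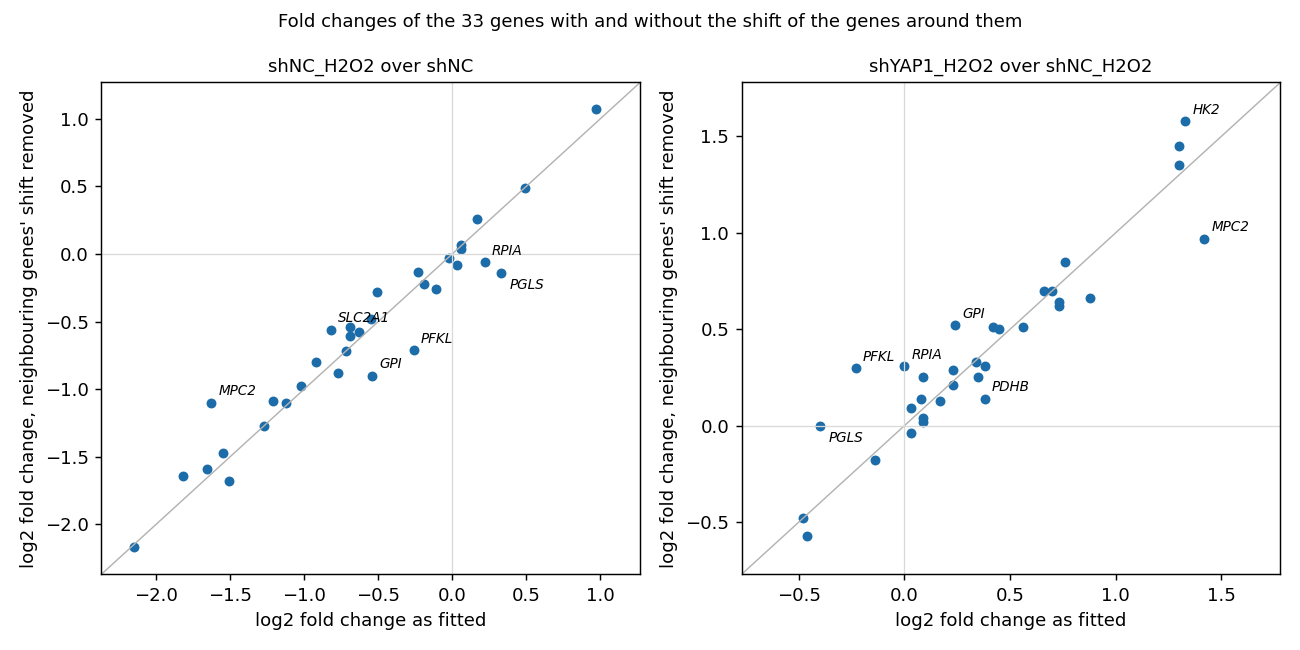
Log2 fold change of each of the 33 genes as fitted (x) and refitted with the neighbouring shift removed (y). The shift is the median deviation, in each library, over a window of 51 genes, the gene itself included. Panels show shNC_H2O2 over shNC (left) and shYAP1_H2O2 over shNC_H2O2 (right), and the diagonal marks equal values. Most points lie near the diagonal, and PFKL, GPI, PGLS and MPC2 lie furthest from it, PFKL at -0.23 on x and 0.30 on y in the right panel.

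Against untreated control cells the steps of shYAP1_H2O2 fell into 3 kinds. The groups did not overlap for 18 of the 33 genes, against 29.7% of all tested genes. The first kind lay above shNC: HK2, SLC2A3 and MPC1 (0.59 ± 0.11, adjusted p = 0.00088), with HK1 (0.18, adjusted p = 0.0261) and SLC16A1 by less; the HK1 call was lost with 6 alternative settings, among them library sizes alone (adjusted p = 0.0656), without shYAP1_H2O2 replicate 1 (adjusted p = 0.0547) and without shYAP1_H2O2 replicate 2 (adjusted p = 0.0674). With all 12 libraries the next did not pass and held 13 genes, among them SLC2A1, PDK1, MPC2, PDHA1, PDHB and TKT (-0.21 to 0.10), with LDHB, PFKM, PGLS, PGD and RPIA, and ALDOA and ALDOC at wide errors. The last lay below shNC and held the 6 genes of the payoff phase (-1.31 to -0.26, of which ENO2 at -0.26 was lost with library sizes alone, adjusted p = 0.0711, and at -0.13 with the neighbouring shift removed, adjusted p = 0.202), TPI1, LDHA, GPI, PFKP, PFKL, PFKFB3, PFKFB4, SLC16A3 and TALDO1. A difference that did not pass does not show equal levels, and the SE from SLC2A1 to TKT was 0.05 to 0.09.

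The rest of the pathway was read from a list of 61 further genes, of which 59 were matched and 50 tested. With H2O2 14 of these 50 rose and 16 fell, where 23.9% of all tested genes rose and 22.6% fell. In shYAP1_H2O2 over shNC_H2O2 18 were higher and 11 lower, where 22% of all tested genes were higher and 21% lower. The median log2 fold change of the 50 was -0.02 with H2O2 and 0.03 in shYAP1_H2O2 over shNC_H2O2. HKDC1, a further hexokinase-domain gene, averaged 675 ± 103 CPM in shYAP1_H2O2, 356 ± 22.5 CPM in shNC_H2O2 and 303 ± 48.9 CPM in shNC. It was higher in shYAP1_H2O2 than in shNC_H2O2 (0.92 ± 0.12, adjusted p = 2.2e-05) and did not pass with H2O2 alone (0.23, adjusted p = 0.126). PRPS1, which makes the ribose donor of nucleotide synthesis, averaged 318 ± 29 CPM in shYAP1_H2O2, 191 ± 11.1 CPM in shNC_H2O2 and 518 ± 46.9 CPM in shNC, and fell by 1.44 on the log2 scale with H2O2 (adjusted p = 9.8e-10). EMB, a partner of the lactate carriers, fell by 2.16 with H2O2 (adjusted p = 1.8e-09) and was 1.16 higher in shYAP1_H2O2 than in shNC_H2O2 (adjusted p = 3.1e-06), while BSG, the other partner, rose by 0.29 (adjusted p = 0.00653) and was 0.49 lower (log2 fold change -0.49, adjusted p = 0.000122). With the neighbouring shift removed BSG was instead called lower with H2O2 (-0.26, adjusted p = 0.00115) and did not pass in shYAP1_H2O2 over shNC_H2O2 (-0.04, adjusted p = 0.588). PDP1, the phosphatase that undoes the action of PDK1, averaged 357 ± 44.3 CPM in shYAP1_H2O2, 351 ± 23.4 CPM in shNC_H2O2 and 167 ± 6.51 CPM in shNC, and was higher with H2O2 (1.07 ± 0.08, adjusted p = 3.8e-08). PC, which carboxylates pyruvate, fell with H2O2 (-0.67, adjusted p = 0.000147) and was higher in shYAP1_H2O2 (1.00, adjusted p = 3.3e-06). SLC2A12 and ENO3 went against SLC2A1 and ENO1. SLC2A12, a further glucose transporter, rose by 2.11 with H2O2 (adjusted p = 1.1e-09) and was lower in shYAP1_H2O2 (-2.66, adjusted p = 2.4e-10), and ENO3, the muscle enolase, rose by 1.13 (adjusted p = 2.8e-08) and was lower by 1.28 (log2 fold change -1.28, adjusted p = 1.2e-08). TIGAR, a phosphatase that lowers the activator of phosphofructokinase, rose by 0.88 with H2O2 (adjusted p = 0.000538) and was lower in shYAP1_H2O2 (-0.70, adjusted p = 0.00355).

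Among 15 transcription factors and feedback genes known to act on glycolysis, 3 rose and 6 fell with H2O2, where 23.9% of all tested genes rose and 22.6% fell. In shYAP1_H2O2 over shNC_H2O2 9 were higher and 2 lower, where 22% of all tested genes were higher and 21% lower. HIF1A averaged 1932 ± 309 CPM in shYAP1_H2O2, 1191 ± 77 CPM in shNC_H2O2 and 1576 ± 410 CPM in shNC, with log2 fold changes of -0.40 ± 0.15 with H2O2 (adjusted p = 0.0356) and 0.70 ± 0.15 in shYAP1_H2O2 over shNC_H2O2 (adjusted p = 0.00145). The HIF1A difference with H2O2 was -0.21 without shNC replicate 4, whose 2189 CPM was the highest of its group, and no longer passed (adjusted p = 0.0833); it was also lost without the filter on low counts (adjusted p = 0.14) and without any 1 of shNC_H2O2 replicates 1, 2 and 4 (adjusted p = 0.08, 0.0903 and 0.0588). EPAS1, the other oxygen-regulated subunit, averaged 1109 ± 116 CPM in shYAP1_H2O2, 592 ± 35.8 CPM in shNC_H2O2 and 889 ± 97.9 CPM in shNC, and ARNT, the partner of both, 54.5 ± 7.27 CPM in shYAP1_H2O2, 32.2 ± 2.17 CPM in shNC_H2O2 and 53.5 ± 7.15 CPM in shNC. EGLN3, a prolyl hydroxylase that is itself a hypoxia target, fell by 2.41 on the log2 scale with H2O2 (adjusted p = 6.3e-09) and was 0.95 higher in shYAP1_H2O2 than in shNC_H2O2 (adjusted p = 0.00019). MYC averaged 604 ± 124 CPM in shYAP1_H2O2, 312 ± 18.9 CPM in shNC_H2O2 and 348 ± 45.6 CPM in shNC. It did not pass with H2O2 (-0.16, adjusted p = 0.303) and was higher in shYAP1_H2O2 than in shNC_H2O2 (0.95 ± 0.12, adjusted p = 1.6e-05). For HIF1A, EPAS1, ARNT and MYC the highest values of shYAP1_H2O2 and of shNC were those of the libraries of high mitochondrial share. MYC had 786 CPM in shYAP1_H2O2 replicate 3 and 515.6 to 574.8 CPM in the rest of that group. For each of these genes every shYAP1_H2O2 library still lay above every shNC_H2O2 library. The 2 called lower in shYAP1_H2O2 than in shNC_H2O2 were MLXIP (-0.42, adjusted p = 7.7e-05) and EGLN2 (-0.62, adjusted p = 0.00163). The 3 that rose with H2O2 were BACH1 (0.93, adjusted p = 6.7e-06), MLXIPL (0.77, adjusted p = 0.00539) and EGLN2 (0.44, adjusted p = 0.0145). Whether these genes acted on the 33 members was not tested.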

How the data were processed

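The authors deposited raw whole-number counts, 1 table a library, neither scaled nor pooled. The GRCh38 build and the tools HISAT2, Subread, featureCounts and DESeq2 were named per the submitters' processing notes. Tool versions, annotation release, strand setting and multi-match handling: not given in the sources used here. Libraries were made with oligo(dT) selection, per the labels' protocols, which also speak of kidney tissue although the labels name the HK-2 line. The instrument is given as either of a pair, with no library tied to it. No row of the tables named no gene.

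Counts were tested with edgeR 4.0.16 (R 4.3.3): filterByExpr by group, TMM factors, a robust quasi-likelihood fit with 1 mean per group to all 12 libraries, and Benjamini-Hochberg adjustment over 19268 genes, called under 0.05. SE is the log2 fold change over the root of F. CPM are TMM-scaled. On simulated counts for shNC_H2O2 against shNC, 175 of 195 tested genes changed by 1 on the log2 scale were recovered among 18948 genes, with 6 false calls. The simulated counts had the same dispersion (0.0163) for every gene and no library unlike its replicates. The data differ in both, so these rates check the code and do not give the error rates of the data. Levels per kilobase used the longest principal transcript of GENCODE 29 (GRCh38), and a gene was called uncertain where over 20% of its exon bases overlap another. Counts of replicates differed by more than sampling noise (chi-square per degree of freedom of 2.96 or above in every pair), so each library counted once. Same-numbered libraries did not deviate together (correlations of -0.222 to 0.103), so the numbers were not taken to pair them.

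The members and lists were chosen with earlier results of these data known. Of the 61 further pathway genes 2 are not analysed here. Values in every library are given for members called in shNC_H2O2 against shNC or shYAP1_H2O2 against shNC_H2O2 with a change of at least 2-fold and a mean of at least 5 CPM, and for their isozyme partners; SLC16A3 was added after its values were seen. Other pathway genes and regulators named were picked from their lists after their values were seen. Alternatives were DESeq2 1.42.0 (size factors, Wald test), library sizes alone, no filter, 2 groups only, each library left out and a replicate block. Others left out the 2 libraries of high mitochondrial share or left out mitochondrially encoded genes. A last one removed the median shift of the window of 51 genes through an offset.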

Additional observations from a re-analysis of the deposited data

Results flagged for a closer look

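In 19 of 99 groups of 4 libraries the highest or the lowest CPM stood apart from the other 3 by more than Dixon's limit, which chance passes in about 1 in 20 groups. In 13 of the 19 the library was shNC replicate 4 and in 5 it was shYAP1_H2O2 replicate 3, those with 13.9% and 11.3% of counts from mitochondrially encoded genes; the part of that share in these values was not tested.

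In shYAP1_H2O2 replicate 3, PGK1 (510.7 CPM), ENO1 (1737 CPM), SLC16A1 (171.9 CPM), SLC16A3 (85.38 CPM) and RPIA (19.76 CPM) were all low. ENO1 was high in shNC_H2O2 replicate 2 (1444 CPM, against 1393 to 1398 CPM in the other 3). In shNC replicate 4, 9 genes were low: PFKM (65.84 CPM), PFKFB3 (354.5 CPM), TPI1 (869.5 CPM), PGAM1 (550.3 CPM), ENO1 (2585 CPM), ENO2 (251.7 CPM), SLC16A3 (127.5 CPM), PGLS (35.17 CPM) and TKT (660.9 CPM). In the same library 4 were high: ALDOA (28.32 CPM, against 8.801 to 10.52 CPM in the other 3), LDHA (2183 CPM), PDK1 (81.84 CPM) and MPC2 (115.1 CPM).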

How the results depend on the processing

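The counts of members called kept their order under every alternative, with 2 to 4 higher and 20 to 25 lower in shNC_H2O2 against shNC, 15 to 25 higher and 1 to 3 lower in shYAP1_H2O2 against shNC_H2O2, and 4 to 6 higher and 14 to 17 lower in shYAP1_H2O2 against shNC. Leaving out 1 library gave 2 to 4 and 22 to 23, 17 to 21 and 2 to 3, and 4 to 6 and 15 to 16. Without the 2 libraries of high mitochondrial share the counts were 4 and 25, 25 and 3, and 6 and 17. The only one of these counts to move by over 1.5 times was that of members called lower in shYAP1_H2O2 against shNC_H2O2, with 1 in place of 2 with the neighbouring genes' shift removed, where PGLS was at 0.00. With a replicate block 2 and 22, 19 and 2, and 5 and 16 members were called; PGAM1 (0.35, adjusted p = 0.0574) and ALDOC (0.99, adjusted p = 0.0594) lost their calls and MPC2 gained one against shNC (-0.21, adjusted p = 0.0339). DESeq2 gave 3 and 22, 20 and 2, and 5 and 16.

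Of 2079 fold changes recomputed, 20 changed sign, and of the others 45 lost and 35 gained a call. Among the 20, PGLS also lost its call in shNC_H2O2 over shNC with the neighbouring shift removed. PFKL gained one in shYAP1_H2O2 over shNC_H2O2 under the same setting. The causes were not tested. In shNC_H2O2 over shNC the sign changed for PFKM (-0.06) and PGD (-0.03) without the 2 libraries, for PFKFB3 (0.06) with library sizes alone, and for PGLS (-0.14), PGD (-0.08) and RPIA (-0.06) with the neighbouring shift removed. In shYAP1_H2O2 over shNC_H2O2 it changed for PFKM (-0.02) and PFKFB4 (-0.03) with library sizes alone, and for PFKL (0.30) and PFKFB4 (-0.04) with the shift removed. In shYAP1_H2O2 over shNC it changed for LDHB (0.02) without the 2 libraries and PGD (-0.05) with the shift removed. Leaving out 1 library, the ranges that crossed 0 were -0.06 to 0.09 (PFKM), -0.10 to 0.02 (PFKFB3) and -0.03 to 0.06 (PGD) in shNC_H2O2 over shNC, -0.02 to 0.14 (PFKM), -0.02 to 0.11 (PFKFB4) and -0.06 to 0.15 (RPIA, 0.00 with all libraries and not counted among the changes of sign) in shYAP1_H2O2 over shNC_H2O2, and -0.03 to 0.19 (PFKM) in shYAP1_H2O2 over shNC. Counting depth was low only for ALDOC, with 5 to 33 counts.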
